A study of Mus musculus with 24 samples.

Results

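The integrated stress response and amino acid genes described here are 34 mouse genes taken by symbol from a list: 11 regulators of the response, 6 further effectors, 11 enzymes of amino acid and one-carbon synthesis and 6 amino acid transporters. All 34 symbols were found among the 55291 in the deposited tables, and all 34 passed the filter on low values (a mean of at least 10 normalized counts), as did 18713 genes in all. Choice of these genes did not use the measured values, but it was made with earlier results of these data known.

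Total RNA was sequenced from E14Tg2a mouse embryonic stem cells of the 129/Ola strain in 24 libraries, 2 for each of 12 groups. Every line carries endogenous CTCF, a chromatin architecture protein, fused to an auxin-inducible degron, together with a doxycycline-inducible Ctcf transgene that is either wild type (WT) or carries 1 of 9 substitutions, R339Q, R342C, S354F, K365T, R377C, R377H, Q418R, R448Q or H455R. Cells of the WT line were left untreated (WT UN), given 500 µM of the auxin analogue IAA for 2 days to deplete endogenous CTCF (WT IAA), or given IAA together with 1 µg/ml doxycycline for 2 days so that the transgene replaced it (WT ID). All 9 mutant lines received IAA and doxycycline as in WT ID and are named by their substitution. Culture was without feeders, in serum with LIF, a GSK3 inhibitor and a MEK inhibitor, and the medium of all groups held non-essential amino acids and a stable glutamine supplement. Doxycycline and transgene expression cannot be told apart, because no group received doxycycline without expressing a transgene. Each substitution is 1 line, so a substitution cannot be told apart from its line. Separate cultures are not stated in the labels for the 2 replicates, and p-values therefore cover only the variation between these libraries, which could be technical.

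In the integrated stress response, kinases that sense amino acid shortage, unfolded protein in the endoplasmic reticulum, double-stranded RNA or haem deficiency phosphorylate the translation factor eIF2. General translation then slows, while translation of the mRNA of the transcription factor ATF4 increases. ATF4, with partners of the C/EBP family, activates genes that make, import and charge amino acids, and genes such as Ddit3 (CHOP), Trib3 and Chac1 that feed back on the response or act under prolonged stress. ATF4 protein was not measured in these data, which hold RNA levels only.

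A composite site for a C/EBP and an ATF protein is a known feature of promoters of this response, so the promoter windows of the members were searched for its core, TGATGNAA, on both strands (N is any base). RefSeq windows from 250 bases before to 50 bases after a gene's start (GRCm38.p6) were found for 30 of the 34 members. The core was in a window of 9 of these 30 members (30.0%), against 1219 of all 27025 genes with a window (4.51%). Counted by window, it was in 9 of 38 windows of members (23.7%) and in 1304 of all 32851 windows (3.97%). The 9 were Atf3, Trib3 and Nupr1 among the regulators, Chac1, Fgf21 and Vldlr among the effectors, Asns and Pycr1 among the enzymes and Slc7a11 among the transporters. A match is a description of the letters and not evidence of binding. Of the stretches that hold it, 5 lie before the start and over no annotated exon of GENCODE M21. They are shown 5′ to 3′ on the gene's strand, with the core or its reverse complement in capitals, because they belong to genes on which results below turn.
Chac1 (chr2:119351013-119351092, plus strand, outside annotated genes): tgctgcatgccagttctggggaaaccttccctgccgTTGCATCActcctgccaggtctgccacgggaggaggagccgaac
Fgf21 (chr7:45615586-45615665, minus strand, outside annotated genes): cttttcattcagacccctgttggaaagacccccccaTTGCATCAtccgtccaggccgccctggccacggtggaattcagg
Atf3 (chr1:191183400-191183479, minus strand, in an intron of a longer Atf3 transcript): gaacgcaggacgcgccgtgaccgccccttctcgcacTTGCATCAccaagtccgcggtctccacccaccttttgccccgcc
Pycr1 (chr11:120643808-120643887, minus strand, outside annotated genes): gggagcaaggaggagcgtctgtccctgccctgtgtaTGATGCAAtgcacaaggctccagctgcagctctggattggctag
Slc7a11 (chr3:50443617-50443715, minus strand, outside annotated genes): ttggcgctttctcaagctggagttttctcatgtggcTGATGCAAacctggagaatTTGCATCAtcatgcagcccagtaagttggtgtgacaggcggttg
Slc7a11, the only one of the 9 with 2 matches, has the core at positions -66 to -59 and its reverse complement at -47 to -40 before the start. In Chac1 the match lies at -193 to -186, in Fgf21 at -139 to -132, in Atf3 at -110 to -103 and in Pycr1 at -103 to -96. Other members described by library below are protein-coding genes placed on mm10 by GENCODE M21, with Atf4 at chr15:80255184-80257541, Ddit3 at chr10:127290774-127296288, Trib3 at chr2:152337422-152344032, Asns at chr6:7675169-7693254, Psat1 at chr19:15904678-15947337 and Slc7a3 at chrX:101079210-101086020.

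Levels of different genes were compared as TPM, which is scaled by gene length. In WT ID the most abundant member was Asns, asparagine synthetase, at 1159 ± 24 TPM (SD, n = 2). Bcat1, which transaminates branched-chain amino acids, followed at 540 ± 18.9 TPM and Atf4 at 533 ± 51.1 TPM, which did not differ beyond their spread. The lowest were the hormone gene Fgf21 at 1.01 ± 0.0785 TPM and Slc7a11, the cystine importer, at 0.365 ± 0.0509 TPM. Fold changes of these 2 genes therefore rest on few reads. Across the 22 treated libraries 34 of 34 members differed among the 11 groups by limma's moderated F-test at an adjusted p under 0.05, as did 78.1% of all genes tested. WT IAA was the lowest of the 11 groups for 27 members. R342C was the highest for 15, Q418R for 8 and R448Q for 5. These counts were not made over all genes, so they have no share to be read against. R448Q also had the most genes called against WT ID, with 22.8% higher and 23.1% lower.

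Recovered reads ranged from 27.8 M to 77.1 M per library. Ctcf RNA, which the degron does not target and to which transgene reads can add, was 9112 and 9248 normalized counts in WT IAA and 9973 and 10418 in WT ID, and it was highest in R448Q (20200 and 20661) and H455R (16951 and 16751), so RNA does not check the depletion. Summed TPM of 8 pluripotent stem cell markers ranged from 8183 to 10304 over the libraries. Marker sums of other types were lower, at 69.1 to 168 for primitive endoderm, 14.3 to 34.1 for mesendoderm, 27.5 to 71.2 for neural ectoderm, 76.2 to 231 for trophectoderm and 13.0 to 40.6 for fibroblasts.

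Cells in which the transgene was not induced (WT IAA) were compared with cells given doxycycline to express the WT transgene (WT ID). Both had endogenous CTCF targeted for degradation. In WT IAA 29 of the 34 members were lower and 0 were higher than in WT ID by limma at an adjusted p under 0.05. Of all genes, 10.7% were called lower and 9.96% higher. No member was higher at an unadjusted p under 0.05 either, and edgeR and DESeq2 each called 29 lower and 0 higher. The median log2 difference over members was -0.94, against 0.00 over all genes tested, and 16 members were at least 2-fold lower. Summed TPM of 8 primitive endoderm markers, 3 of them under 1 TPM in every library, also differed, at 79.0 and 83.6 in WT IAA, 112 and 107 in WT ID and 72.1 and 69.1 in WT UN. The pluripotent stem cell sum was 8503 and 8263 in WT IAA against 9213 and 8873 in WT ID. Trophectoderm went the other way, at 161 and 168 in WT IAA against 138 and 122. Mesendoderm, neural ectoderm and fibroblast sums overlapped between WT IAA and WT ID. The part of these markers in the results was not tested.

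Among the regulators 9 of 11 were lower in WT IAA than in WT ID. Lower here means relative to WT ID, not to untreated cells, in which 14 members had a lower mean TPM, not centred on all genes, than in WT IAA. Atf4 read 9063 and 8636 normalized counts in WT IAA and 17240 and 16182 in WT ID. The groups did not overlap, and Atf4 was 1.89-fold lower (log2 -0.92 ± 0.10 SE, limma adjusted p = 8.14e-06). Trib3, a pseudokinase that binds ATF4 and restrains the response, read 801 and 695 against 3121 and 2617, a 3.82-fold difference (-1.94 ± 0.19, limma adjusted p = 2.05e-06). Ddit3 read 130 and 110 against 443 and 392 (-1.80 ± 0.36, limma adjusted p = 0.00174). For each of these genes both WT IAA libraries lay below both WT ID libraries. Nupr1, a small stress-induced chromatin protein, was lower by 1.86, Atf5 by 1.35, Atf3 by 0.96 and Cebpg by 0.65 on the log2 scale. Smaller decreases were called for Ppp1r15a, the phosphatase subunit that reverses eIF2 phosphorylation (-0.31), and Eif4ebp1, an inhibitor of cap-dependent translation (-0.27). Cebpb, whose exons overlap those of another gene on the opposite strand over 20.7% of their length, was not called (-0.41 ± 0.22, limma adjusted p = 0.204). Sesn2, an inhibitor of the amino acid sensing kinase mTORC1, was at -0.03 ± 0.07 and its libraries overlapped.

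Of the 6 effectors 5 were lower in WT IAA. The largest difference of any member was that of Chac1, an enzyme that degrades glutathione, which read 254 and 207 normalized counts in WT IAA against 1593 and 1477 in WT ID, 6.66-fold lower (-2.74 ± 0.15, limma adjusted p = 7.63e-10). Stc2, a secreted glycoprotein, read 274 and 210 against 1001 and 952 (-2.02 ± 0.22). Vldlr, a lipoprotein receptor, read 147 and 107 against 336 and 385 (-1.51 ± 0.21). Gdf15, a stress hormone, was lower by 0.85 on the log2 scale. Fgf21 read 3.57 and 4.88 against 11.7 and 14.0 normalized counts and was called (-1.41 ± 0.40, limma adjusted p = 0.0165), but without replicate 1 of WT IAA, or without either replicate of WT ID, the call was lost, and DESeq2 did not make it. Xpot, which exports tRNA from the nucleus, was at -0.11 ± 0.07 and was not called.

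Enzymes of amino acid synthesis were lower in WT IAA in 9 of 11 cases. Decreases were largest in proline synthesis, with Aldh18a1 at -1.62 ± 0.13 and Pycr1 at -1.33 ± 0.14, and in Gpt2, the mitochondrial alanine transaminase, at -1.18 ± 0.12. Psat1, of the serine pathway, read 7027 and 6134 normalized counts against 13618 and 13469 (-1.04 ± 0.12, limma adjusted p = 9.22e-06). The other serine pathway enzymes Phgdh (-0.84) and Psph (-0.77), the mitochondrial one-carbon enzymes Mthfd2 (-1.06) and Shmt2 (-0.67), and Cth, which makes cysteine (-0.58), were called too. Asns read 35524 and 35014 against 41304 and 43116. Its 2 groups did not overlap, but the difference of -0.26 ± 0.09 did not pass (limma adjusted p = 0.0555). Bcat1 was at -0.03 ± 0.09, with overlapping libraries.

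All 6 transporters were lower in WT IAA. Slc7a3, an importer of cationic amino acids, read 948 and 873 normalized counts against 2486 and 2456 (-1.44 ± 0.09, limma adjusted p = 3.17e-09). Slc7a11 read 23.2 and 25.6 against 71.7 and 63.2 (-1.43 ± 0.29, limma adjusted p = 0.00161). Slc6a9, a glycine transporter, was at -1.47 ± 0.16; its exons overlap those of Ccdc24 on the opposite strand over 27.8% of their length, and how the counting treated strand is unknown. Slc7a5 and Slc3a2, the light and heavy chains of the large neutral amino acid transporter, were lower by 0.85 and 0.84. Slc7a1, another cationic amino acid importer, was lower by 0.71. Leaving out 1 library of either group lowered the count of called members to between 23 and 26. Calls of 22 members held under every alternative that kept the spread of all groups, and those lost under at least 1 were Atf3, Ppp1r15a, Eif4ebp1, Fgf21, Gdf15, Phgdh and Cth.

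**Figure D1:**
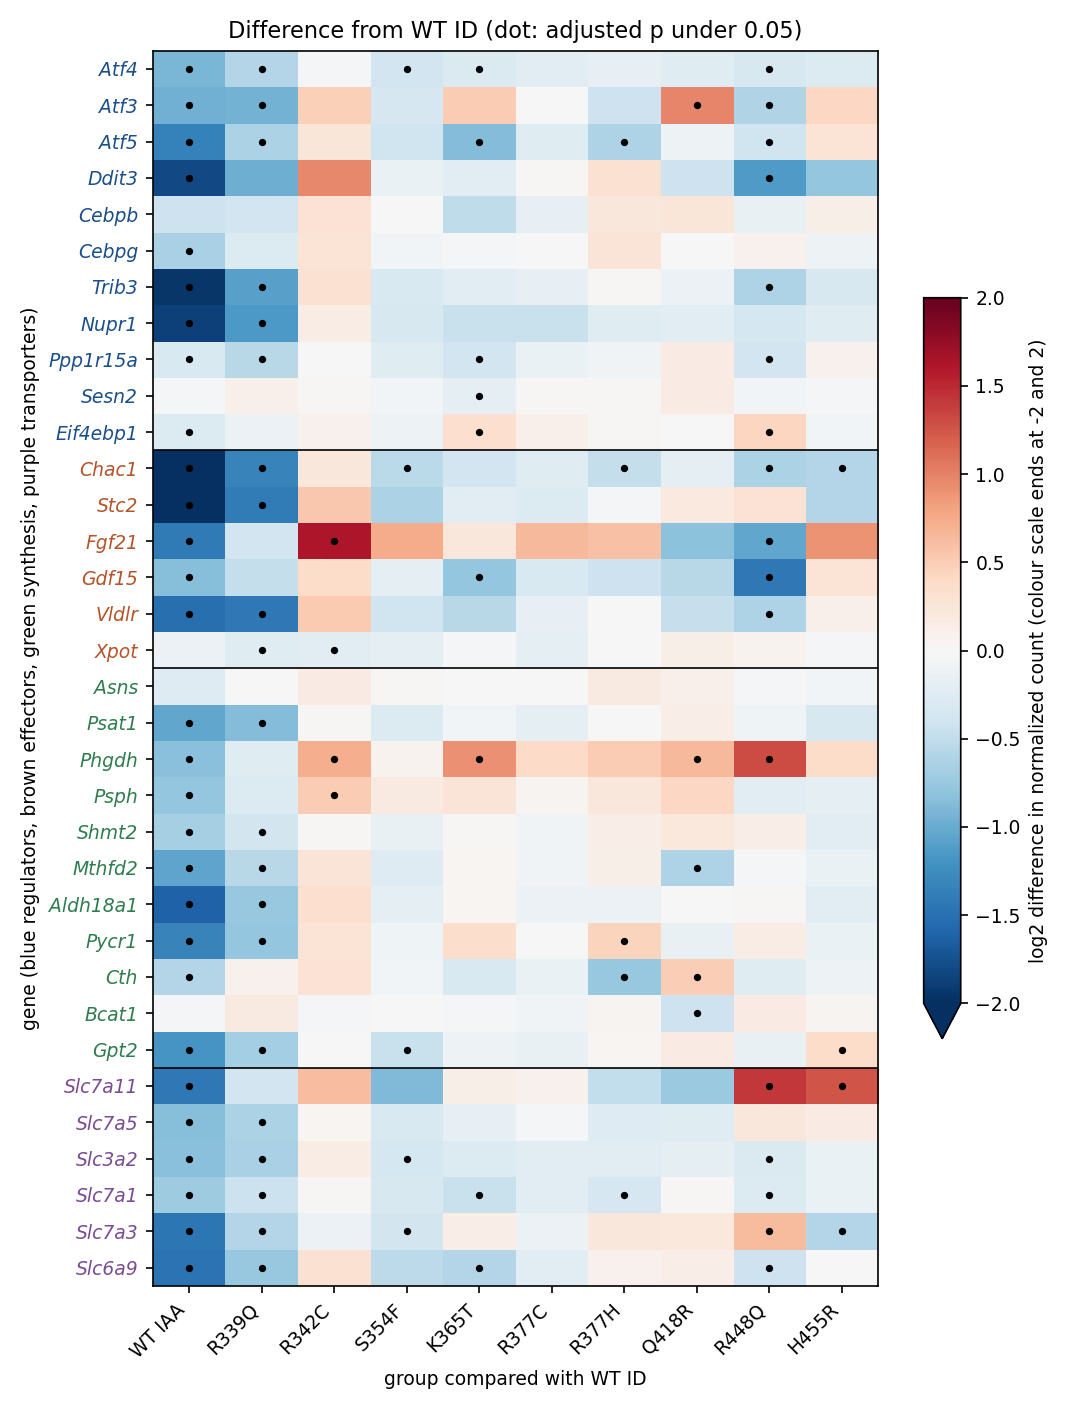
Log2 difference in normalized count from WT ID (colour) for each of the 34 genes (rows, grouped by role) in WT IAA and the 9 mutants (columns); a dot marks an adjusted p under 0.05. WT IAA has 29 dots and R339Q 21, all on blue cells, whereas R377C has 0.

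Untreated cells (WT UN), which keep endogenous CTCF, were deposited in tables scaled separately from the rest. Their TPM were therefore set beside those of the other WT groups with no test. Only edgeR on recovered reads, given below, tested WT UN against WT ID. In WT UN 11 members were at least 2-fold lower than in WT ID with no overlap of libraries and 0 were at least 2-fold higher, against 9.98% and 2.09% of 18671 genes. The median log2 TPM ratio over members was -0.61, against -0.19 over those genes. Without a size condition, 28 members were lower with no overlap, 0 were higher and 6 overlapped, against 50.0% of all genes lower and 20.1% higher. Chac1 read 37.3 and 24.1 TPM in WT UN, 11.8 and 9.55 in WT IAA and 75.8 and 65.4 in WT ID. Trib3 read 41.4 and 31.6 TPM in WT UN, 28.8 and 24.7 in WT IAA and 114 and 89.2 in WT ID. For both genes the untreated libraries lay between the other groups, with no overlap. Ddit3 read 7.85 and 5.79 TPM in WT UN, 5.78 and 4.83 in WT IAA and 20.1 and 16.6 in WT ID, so that its untreated and IAA libraries nearly met.

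Between WT UN and WT IAA, 4 members were at least 2-fold higher in untreated cells and 1 was lower with no overlap, against 3.42% and 13.2% of all genes in those directions. The 4 were Slc7a3 (log2 TPM ratio 1.59), Chac1 (1.51), Aldh18a1 (1.48) and Vldlr (1.02), and the lower one was Cebpb (-1.20). When ratios were centred on the all-gene median, 7 were higher and 1 lower. The order of group means was WT IAA below WT UN below WT ID for 18 members. It was WT UN below WT IAA below WT ID for 14 members, and for 2, Slc7a3 and Slc7a5, untreated cells were highest. These orders used TPM not centred on the all-gene median log2 ratio, which was -0.19 for WT UN against each other group. They were not counted over all genes. Among the 14, Cebpg and Slc7a1 (both -0.02), Gdf15 (-0.07), Ppp1r15a (-0.12) and Atf5 (-0.16) were below WT IAA by less than that median. Synthesis enzymes and transporters were split in the order of group means. Psat1 was at 241 and 227 TPM in WT UN and 249 and 229 in WT ID, which overlapped, and Slc7a3 at 59.6 and 50.5 against 51.1 and 47.0 TPM. By contrast, Slc6a9 was at 5.01 and 3.69 TPM in WT UN against 18.3 and 16.4 in WT ID, and Asns at 822 and 768 against 1176 and 1142. With edgeR on recovered reads of all 24 libraries, 23 members were called lower in WT UN than in WT ID and 1, Slc7a3, higher, against 21.0% and 19.5% of all genes. By edgeR Psat1 (log2 0.13), Xpot (0.11), Shmt2 (0.08) and Aldh18a1 (0.05) were above 0 in WT UN, though below WT ID by mean TPM. None of these was called. Leaving out 1 library left 16 to 21 lower, and without replicate 1 of WT UN Slc7a3 was not called.

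**Figure D2:**
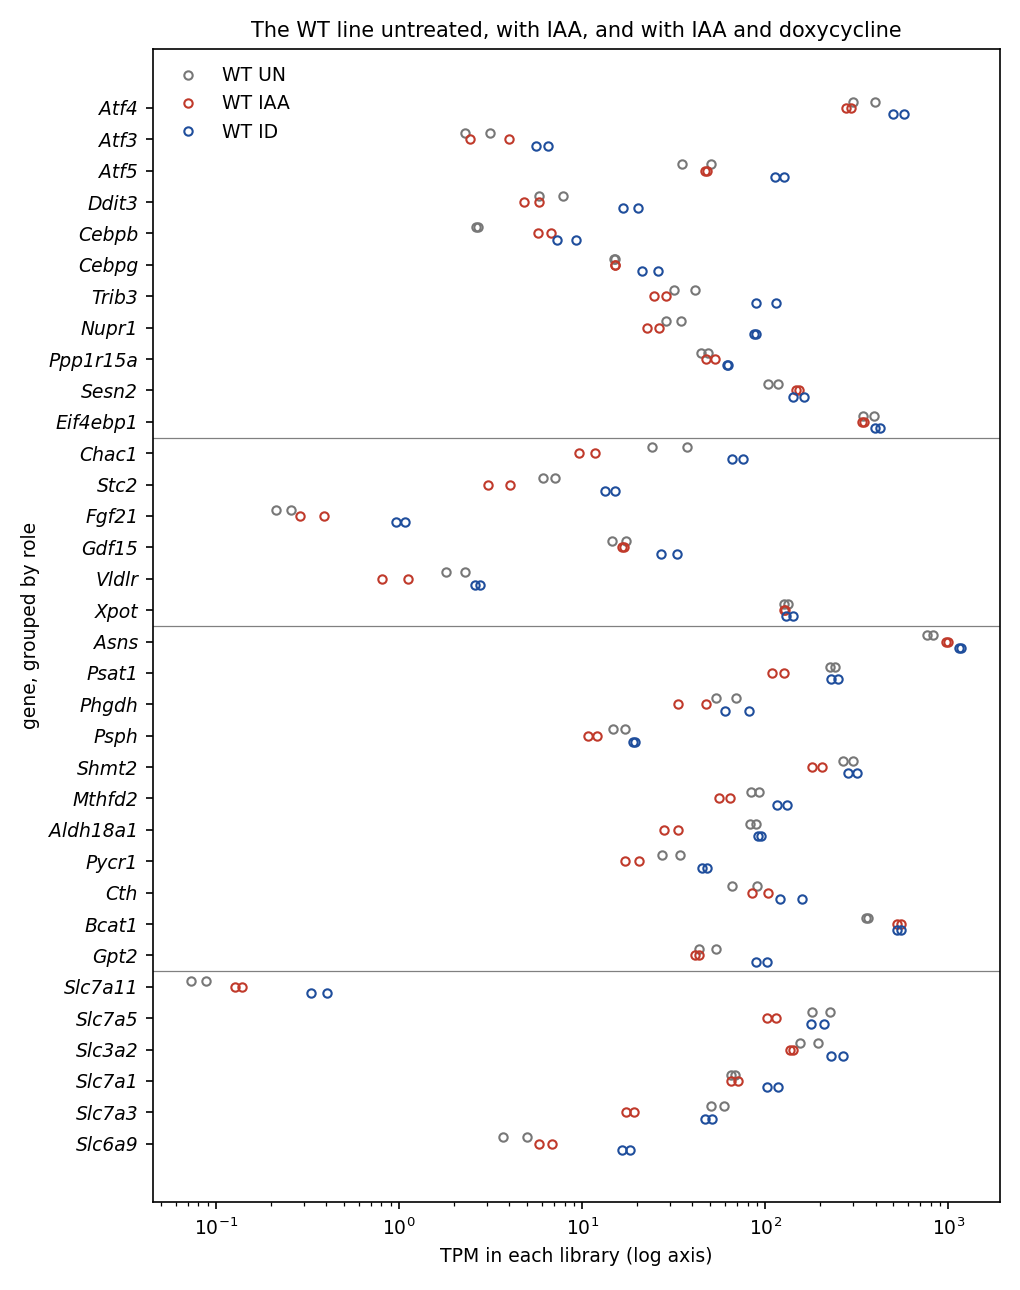
TPM of each gene (rows, grouped by role) in the 2 libraries each of WT UN, WT IAA and WT ID on a log axis. WT ID libraries are furthest right for 32 of the 34 genes by group mean, and WT IAA libraries furthest left for Chac1, Aldh18a1 and Slc7a3. TPM are not centred on the all-gene median log2 ratio, which was -0.19 for WT UN against each other group.

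Each mutant was then compared with the WT transgene under the same treatment. The share of members called lower was above that of all genes in R339Q (61.8% against 9.70%) and R448Q (38.2% against 23.1%). It was also above in K365T (20.6% against 14.2%) and S354F (14.7% against 4.31%). It was close in R377H (11.8% against 10.7%) and R377C (0.00% against 3.43%), since 1 member is 2.94% of the list. In R342C, Q418R and H455R it was below. The share called higher was close to that of all genes in R342C (8.82% against 10.0%) and Q418R (8.82% against 11.2%). It was below that of all genes in the other mutants, with the smallest gap in R377C (0.00% against 4.67%). R339Q had the most members called lower of the 9 mutants, with 21 of 34 members lower and 0 higher by limma, against 9.70% of all genes called lower and 11.8% called higher; 1 member was higher at an unadjusted p under 0.05, and edgeR and DESeq2 each called 21 lower and 0 higher. Its median over members was -0.57, against 0.00 over all genes, and 31 of 34 differences were negative. Atf4 read 10860 and 11391 normalized counts (-0.59 ± 0.10, limma adjusted p = 0.000459). Trib3 read 1215 and 1474 (-1.09 ± 0.19), Nupr1 1239 and 1397 (-1.15 ± 0.19) and Chac1 540 and 678 (-1.34 ± 0.15, limma adjusted p = 2.9e-06). All of these lay below both WT ID libraries and above both WT IAA libraries. The largest decreases were those of Vldlr (-1.43 ± 0.21), Stc2 (-1.40 ± 0.22) and Chac1. Lower than in WT ID were 6 of 11 regulators, 4 of 6 effectors, 6 of 11 enzymes and 5 of 6 transporters. Psat1, at 7271 and 7664 normalized counts, had the largest decrease among enzymes (-0.86 ± 0.12). Slc7a3 read 1511 and 1789 (-0.59 ± 0.09). Ddit3 read 171 and 263 and did not pass (-0.97), while Asns, at 45008 and 39072, was at -0.01 and Slc7a11, at 47.5 and 55.9, at -0.38. Leaving out 1 library left between 15 and 20 called members.

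R342C, a substitution 3 residues away, had 3 members higher and 1 lower than WT ID, against 10.0% and 13.3% of all genes. Higher were Fgf21 (39.4 and 42.9 against 11.7 and 14.0 normalized counts; 1.61 ± 0.40, limma adjusted p = 0.00714), Phgdh (3993 and 3723 against 2608 and 2068; 0.73 ± 0.19) and Psph (0.50 ± 0.16), and Xpot was lower (-0.21 ± 0.07). The median was 0.25, against -0.03 over all genes, and 30 of 34 differences were positive. Ddit3 read 729 and 908 normalized counts, above both WT ID libraries, but did not pass (0.96). Trib3, at 3378 and 3670, and Chac1, at 1796 and 1787, also lay above both WT ID libraries without passing (0.30 and 0.22), and Atf4, at 16052 and 16811, overlapped WT ID. This count depended on scaling: quantile normalization gave 10 higher and 0 lower, TPM 4 and 0, and edgeR 5 and 0. Without replicate 1 (where Fgf21 was lost) or without replicate 2 of WT ID it was 1, and without replicate 1 of R342C it was 2.

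R339Q and R342C were compared directly. In R339Q 28 of 34 members were lower and 0 higher by limma, against 10.9% and 15.8% of all genes; 1 member was higher at an unadjusted p under 0.05, edgeR called 28 lower and 0 higher, and DESeq2 28 lower and 1 higher. The median difference was -0.81, against 0.025 over all genes. By size the first 3 were Fgf21 (-1.99 ± 0.40), Vldlr (-1.96 ± 0.21) and Ddit3 (-1.93 ± 0.36, limma adjusted p = 0.000812), with Stc2 also at -1.93 ± 0.22. Chac1 was lower by 1.56, Atf3 by 1.42, Trib3 by 1.40 and Nupr1 by 1.30 on the log2 scale, and Atf4 by 0.56. All 6 transporters were lower, from -0.46 (Slc7a1) to -1.07 (Slc6a9). Among the enzymes 8 of 11 were lower, led by Aldh18a1 (-1.09 ± 0.13) and Pycr1 (-1.07 ± 0.14). Members not called were Sesn2, Eif4ebp1, Xpot, Asns, Cth and Bcat1. Omitting 1 library left between 23 and 28 called members. The 2 lines also differed in Ctcf RNA, at 10247 and 10095 normalized counts in R339Q and 8262 and 8902 in R342C. Summed TPM of 8 primitive endoderm markers was 104 and 110 in R339Q against 168 and 144 in R342C. That of 6 neural ectoderm markers, 4 of them under 1 TPM in every library, was 31.2 and 38 against 45.4 and 44.8. Going the other way, 6 trophectoderm markers were at 172 and 164 against 136 and 147. The sums of 6 fibroblast markers nearly met, at 29.0 and 31.0 against 40.6 and 31.2. The part of Ctcf RNA and these markers in the difference between the 2 lines was not tested.

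**Figure D3:**
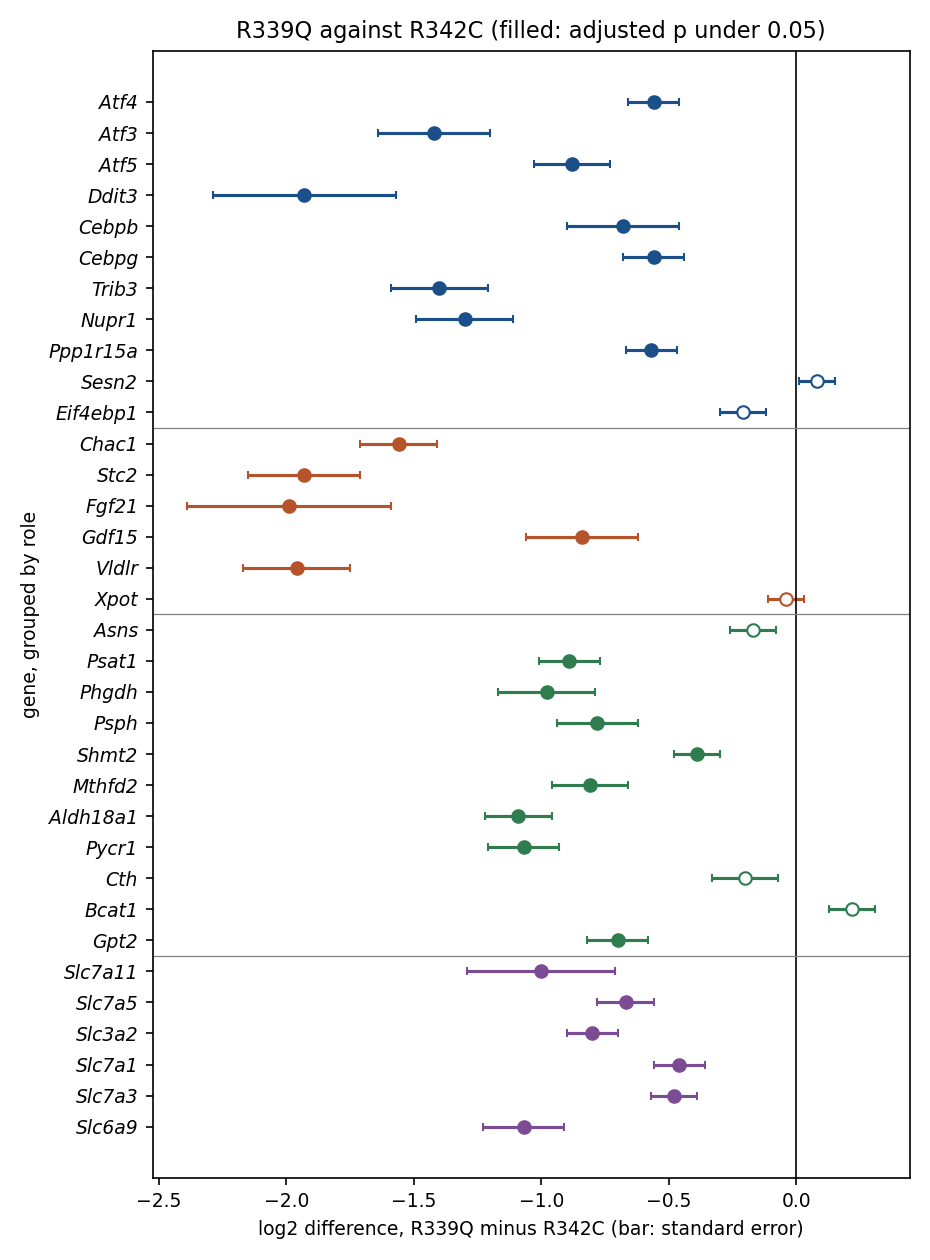
Log2 difference in normalized count, R339Q minus R342C, with its standard error for each gene (rows, grouped by role); filled points passed an adjusted p under 0.05. All 28 filled points lie left of 0.

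In R448Q the members moved in both directions: 4 were higher and 13 lower than in WT ID, against 22.8% and 23.1% of all genes. Higher were Slc7a11, at 205 and 160 against 71.7 and 63.2 normalized counts (1.41 ± 0.29, limma adjusted p = 0.000433), Phgdh, the first enzyme of serine synthesis, at 5989 and 5526 against 2608 and 2068 (1.31 ± 0.19), Slc7a3, at 3823 and 3801 against 2486 and 2456 (0.63 ± 0.09), and Eif4ebp1 (0.43). These libraries were above every WT ID library, and R448Q had the highest group mean of Phgdh, Slc7a11 and Slc7a3. Lower were 6 regulators, 4 effectors and 3 transporters. Gdf15 read 310 and 240 against 784 and 690 (-1.43 ± 0.22, limma adjusted p = 1.85e-05), Ddit3 215 and 167 against 443 and 392 (-1.13 ± 0.36) and Fgf21 7.06 and 4.62 against 11.7 and 14.0 (-1.04 ± 0.40). The Fgf21 call was lost with edgeR and DESeq2, under quantile normalization, a pseudocount of 5, no filter on low values and chromosome centring, and without replicate 2 of R448Q or either replicate of WT ID. Trib3, at 2005 and 1734, and Chac1, at 1076 and 894, were lower by 0.62 and 0.64, and Atf4 by 0.32. Genes of several chromosomes were shifted together in this line, with all-gene medians of 0.47 on chromosome 1, 0.46 on chromosome 3 (Cth, Phgdh and Slc7a11), 0.45 on chromosome 8 (Eif4ebp1, Gdf15, Gpt2 and Slc7a5) and 0.15 on chromosome 11. Medians below 0 included -0.18 on chromosome 7 (Atf5, Cebpg, Fgf21, Nupr1 and Ppp1r15a) and -0.12 on chromosome 15 (Atf4). On chromosome 19 (Aldh18a1, Psat1, Slc3a2 and Vldlr) the median was -0.10. After each chromosome was centred on its median, 4 members were higher and 7 lower, and Eif4ebp1 was at -0.01. Atf4 (-0.19), Atf5 and Vldlr were among those no longer called. Without replicate 2 of R448Q, or without replicate 1 of WT ID, 8 members were called.

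H455R had 2 members higher and 2 lower than WT ID, against 12.6% and 10.5% of all genes. Slc7a11 read 197 and 132 normalized counts (1.25 ± 0.29, limma adjusted p = 0.00341) and Gpt2 was at 0.36, whereas Slc7a3 read 1722 and 1562 (-0.59 ± 0.09) and Chac1 1039 and 1015 (-0.58 ± 0.15). Slc7a11 was thus above WT ID in both R448Q and H455R, and Slc7a3 was above it in the first and below it in the second. Genes of chromosome 8, which holds Gpt2, had a median shift of 0.47 in H455R, and Gpt2 was at -0.11 after centring by chromosome, which left 1 higher and 4 lower; DESeq2 gave 2 and 4. Without replicate 1 of H455R Slc7a11 was not called, nor Chac1 without replicate 1 of WT ID. Tested directly, R448Q had 5 members higher and 8 lower than H455R, against 21.9% and 22.7% of all genes. The largest called increases were Slc7a3 (1.22 ± 0.09, limma adjusted p = 2.4e-09), Phgdh (0.94 ± 0.19) and Stc2 (0.88 ± 0.22), and the largest decreases Fgf21 (-1.94 ± 0.40), Gdf15 (-1.70 ± 0.22) and Atf3 (-1.01 ± 0.22). After centring by chromosome Phgdh was at 0.46 and no longer called, and without replicate 2 of H455R the Stc2 call was lost. By TPM the counts were 4 and 12.

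For K365T 2 members were higher and 7 lower than in WT ID, against 17.7% and 14.2% of all genes. Phgdh rose (0.92 ± 0.19, limma adjusted p = 0.000896), as did Eif4ebp1 (0.34), and the largest decreases were Atf5 (-0.87 ± 0.15), Gdf15 (-0.78 ± 0.22) and Slc6a9 (-0.58 ± 0.16). The 2 replicates of this line differed: Ddit3 read 201 and 626 normalized counts, Trib3 1898 and 3204, Chac1 1003 and 1374, Psat1 11200 and 15368 and Atf4 11749 and 15954, with replicate 1 lower each time, whereas Slc7a3 read 2854 and 2612. Without replicate 2 of K365T 17 members were called, and without replicate 1 of WT ID 5. Genes of several chromosomes were shifted together in K365T, with all-gene medians of 0.28 on chromosome 1 (Atf3), 0.20 on chromosome 8 (Eif4ebp1, Gdf15, Gpt2 and Slc7a5) and 0.37 on chromosome 11 (Pycr1 and Stc2). Centring by chromosome gave 1 higher and 8 lower, with Eif4ebp1 at 0.14 and no longer called, and edgeR gave 3 and 6.

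S354F had 5 members lower (Atf4, Chac1, Gpt2, Slc3a2 and Slc7a3) and 0 higher by limma, against 4.31% and 5.49% of all genes; 0 members were higher at an unadjusted p under 0.05, and 0 by edgeR and by DESeq2. The 3 largest decreases among those called were Chac1 (1098 and 1018 normalized counts; -0.54 ± 0.15), Gpt2 (-0.44 ± 0.12) and Atf4 (13475 and 12307; -0.38 ± 0.10, limma adjusted p = 0.0273). None of the 34 was called without replicate 2 of S354F, nor without either replicate of WT ID. Slc7a11, at 37.7 and 34.7 normalized counts, was below both WT ID libraries and had a larger decrease but did not pass (-0.88), nor did Stc2 (-0.63) or Slc6a9 (-0.52). Between S354F and K365T 2 members were higher in S354F and 7 lower, against 12.2% and 16.0% of all genes. Atf5 (0.47) and Gdf15 (0.61) were higher, and Slc7a11 (-0.99 ± 0.29), Phgdh (-0.85 ± 0.19) and Atf3 (-0.83 ± 0.22) had the largest decreases. After centring by chromosome 1 was higher and 5 lower, with Atf3 (-0.56), Atf5 (0.36), Pycr1 (-0.08) and Gpt2 (-0.15) no longer called. TPM gave 4 and 4, quantile normalization 3 and 6, and without replicate 2 of S354F 5 were called.

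R377C was nearest to WT ID by count, with 0 members higher and 0 lower by limma, against 4.67% and 3.43% of all genes. At an unadjusted p under 0.05, 0 were higher and 4 lower, and edgeR and DESeq2 each called 0. Its log2 differences ranged from -0.44 (Nupr1) to 0.65 (Fgf21). The 95% interval of the difference was -0.44 to 0.00 for Atf4, -0.57 to 0.24 for Trib3 and -0.55 to 0.07 for Chac1, so that decreases of up to these sizes lay within the intervals. Ddit3 read 319 and 558, Trib3 2293 and 2830 and Chac1 1133 and 1495 normalized counts.

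R377H, the other substitution of the same residue, had 1 member higher and 4 lower than WT ID, against 14.4% and 10.7% of all genes. Cth read 3030 and 3077 normalized counts against 5709 and 4671 (-0.76 ± 0.13, limma adjusted p = 0.000195), and Atf5 2026 and 2097 against 3231 and 3111 (-0.62 ± 0.15). Chac1 was lower by 0.47 and Slc7a1 by 0.33, and Pycr1 was higher (0.44). Chromosome 11, which holds Pycr1, had a median shift of 0.54 in this line, and Pycr1 was at -0.11 after centring. TPM gave 0 higher and 5 lower. Leaving out either replicate of R377H or of WT ID left 2 or 3 called members.

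Between R377C and R377H 1 member was higher in R377C and 2 lower, against 7.88% and 11.1% of all genes. Cth was higher, at 4692 and 4724 against 3030 and 3077 normalized counts (0.62 ± 0.13, limma adjusted p = 0.00179). Slc7a3 was lower (-0.34 ± 0.09), as was Pycr1 (-0.43 ± 0.14), which was at 0.08 after centring by chromosome. Quantile normalization gave 3 higher and 1 lower, TPM 2 and 0, DESeq2 2 and 2, centring by chromosome 1 and 1, and without either replicate of R377H 1 member was called. The median half-width of the 95% interval over members was 0.28, so smaller differences between these lines were not resolved.

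Q418R had 3 members higher and 2 lower than WT ID, against 11.2% and 13.8% of all genes. Atf3, an early stress-induced factor, read 362 and 320 normalized counts against 180 and 165 (0.98 ± 0.22, limma adjusted p = 0.00287), the highest of the 11 groups. Phgdh (0.65 ± 0.19) and Cth (7112 and 7420 normalized counts; 0.49 ± 0.13) were higher too. Mthfd2 read 3506 and 4018 against 5927 and 5571 (-0.61 ± 0.15), and Bcat1 48877 and 52336 against 66236 and 67757 (-0.41 ± 0.09). Both lie on chromosome 6, where the all-gene median was -0.47 in Q418R. After centring by chromosome Bcat1 was at 0.06 and Mthfd2 at -0.15, and 5 members were higher and 0 lower; TPM gave 2 and 4. Without replicate 2 of WT ID 3 members were called.

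In the mutant libraries not yet given, few of the differences from WT ID passed for the genes described by library. Atf4 read 14014 and 13633 normalized counts in H455R, 14398 and 12514 in R448Q, 13850 and 14144 in Q418R, 14407 and 15517 in R377H and 13503 and 15250 in R377C, each below both WT ID libraries, of which R448Q passed. Ddit3 read 495 and 289 in S354F, 557 and 475 in R377H, 322 and 305 in Q418R and 252 and 237 in H455R, so that R377H lay above WT ID and Q418R and H455R below it, without passing. Trib3 read 2782 and 1903 in S354F, 2843 and 2959 in R377H, 2490 and 2792 in Q418R and 2544 and 2052 in H455R. Of these groups, H455R alone did not overlap WT ID for Trib3. Chac1 read 1057 and 1158 in R377H and 1316 and 1356 in Q418R, both below WT ID, of which R377H passed. Psat1 read 14127 and 13492 in R342C, 11891 and 10514 in S354F, 10801 and 12881 in R377C, 12969 and 14289 in R377H, 11919 and 9909 in H455R, 13275 and 12303 in R448Q and 14512 and 15209 in Q418R, which placed S354F, R377C, R448Q and H455R below WT ID and Q418R above it. Asns read 43608 and 38365 in H455R, 39967 and 42633 in R448Q, 43535 and 47218 in Q418R, 45115 and 50337 in R377H, 40773 and 44155 in R377C, 38781 and 46043 in K365T, 43796 and 42192 in S354F and 47476 and 47171 in R342C. Only R342C, R377H and Q418R lay above both WT ID libraries for Asns, and none of the 9 mutants was called.

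For the importers Slc7a3 and Slc7a11 and the hormone gene Fgf21 the lines lay on both sides of WT ID. Slc7a3 read 2297 and 2295 normalized counts in R342C, 2099 and 1765 in S354F, 2339 and 2227 in R377C, 2913 and 2871 in R377H and 2871 and 2850 in Q418R, the first 3 below and the last 2 above WT ID, and of these S354F passed. Slc7a11 read 89.3 and 121 in R342C, 63.5 and 82.8 in K365T, 64.0 and 78.8 in R377C, 42.4 and 53.2 in R377H and 29.5 and 53.6 in Q418R. Fgf21 read 32.2 and 19.1 in H455R, 7.77 and 5.96 in Q418R, 18.9 and 20.6 in R377H, 16.6 and 25.6 in R377C, 18.6 and 12.5 in K365T, 29.1 and 16.7 in S354F and 7.75 and 11.9 in R339Q. Neither Slc7a11 nor Fgf21 was called in these groups.

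**Figure D4:**
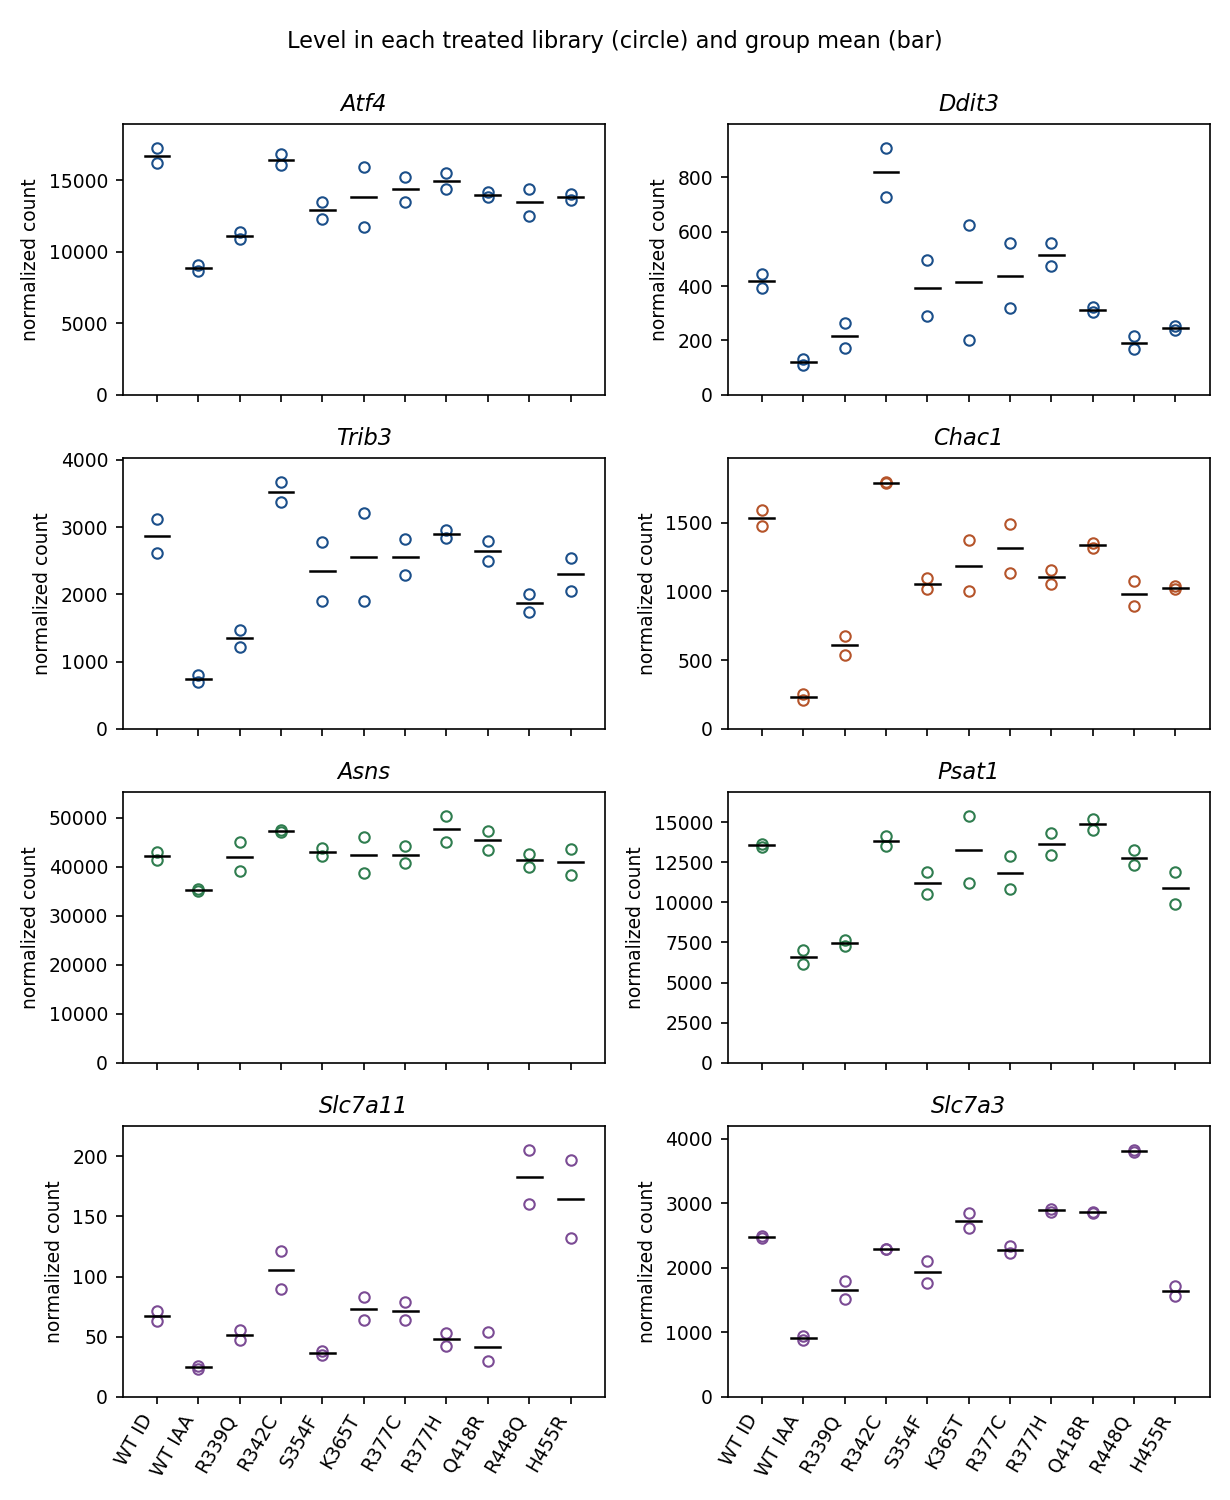
Normalized count (linear axis from 0) of 8 genes in each of the 22 treated libraries (circles), with the mean of each group (bar). WT IAA and R339Q are low for Atf4, Trib3, Chac1 and Psat1, Slc7a11 is high in R448Q and H455R, and Asns varies least between groups.

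Set against WT IAA, in which the transgene is not induced, every mutant had more members higher than lower. Among the 34, 31 were higher in R342C, 30 in Q418R, 28 in R377C, 28 in H455R, 27 in S354F, 27 in K365T, 27 in R377H, 25 in R448Q and 16 in R339Q. Of all genes tested, 20.5% were higher in R342C, 15.0% in Q418R, 13.0% in R377C, 13.8% in H455R, 14.2% in S354F, 22.1% in K365T, 20.5% in R377H, 23.6% in R448Q and 9.12% in R339Q. Only Bcat1 in Q418R (-0.38) and Gdf15 in R448Q (-0.58) were called lower, and Bcat1 was at 0.11 after centring by chromosome. In the lower direction all genes gave 6.63% for R339Q, 22.8% for R342C, 13.3% for S354F, 18.7% for K365T, 12.0% for R377C, 16.5% for R377H, 16.6% for Q418R, 23.2% for R448Q and 11.8% for H455R. At an unadjusted p under 0.05, 1 member each was lower in R339Q and K365T, where limma, edgeR and DESeq2 called 0. Called higher in all 9 mutants were 14 members, among them Atf4, Trib3, Chac1, Aldh18a1 and Slc7a3, and Chac1 ranged from 1.40 in R339Q to 2.96 in R342C. These 9 comparisons share the WT IAA libraries. The share of all genes called higher in all 9 was not counted, so the 14 has no share to be read against. The Atf4 call in R339Q was lost by TPM, with no filter on low values, and without any 1 library of R339Q or WT IAA. In R339Q the calls of Chac1, Aldh18a1 and Slc7a3 held under these settings. R339Q had the fewest calls, and its count was 9 without its replicate 1 and 5 without its replicate 2 or without replicate 2 of WT IAA. Its Vldlr (0.08) and Atf3 (0.02) overlapped WT IAA, and Psat1 lay above both WT IAA libraries without passing (0.19), whereas Aldh18a1 (0.86), Trib3 (0.84) and Chac1 passed, Trib3 not without replicate 2 of either group.

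Summarised by role, the median log2 level of a role in each library, relative to each gene's mean over the 11 groups, was lowest in the 2 WT IAA libraries for all 4 roles. Over all members it was -0.73 and -0.88 in WT IAA, -0.44 and -0.27 in R339Q, 0.23 and 0.15 in WT ID and 0.37 and 0.50 in R342C. The effectors spanned the widest range, from a mean of -1.25 in WT IAA to 0.84 in R342C. Regulators ranged from -0.60 to 0.39 in the same 2 groups, and transporters from -0.91 to 0.36. In K365T the 2 libraries lay on either side of 0, at -0.12 and 0.25.

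**Figure D5:**
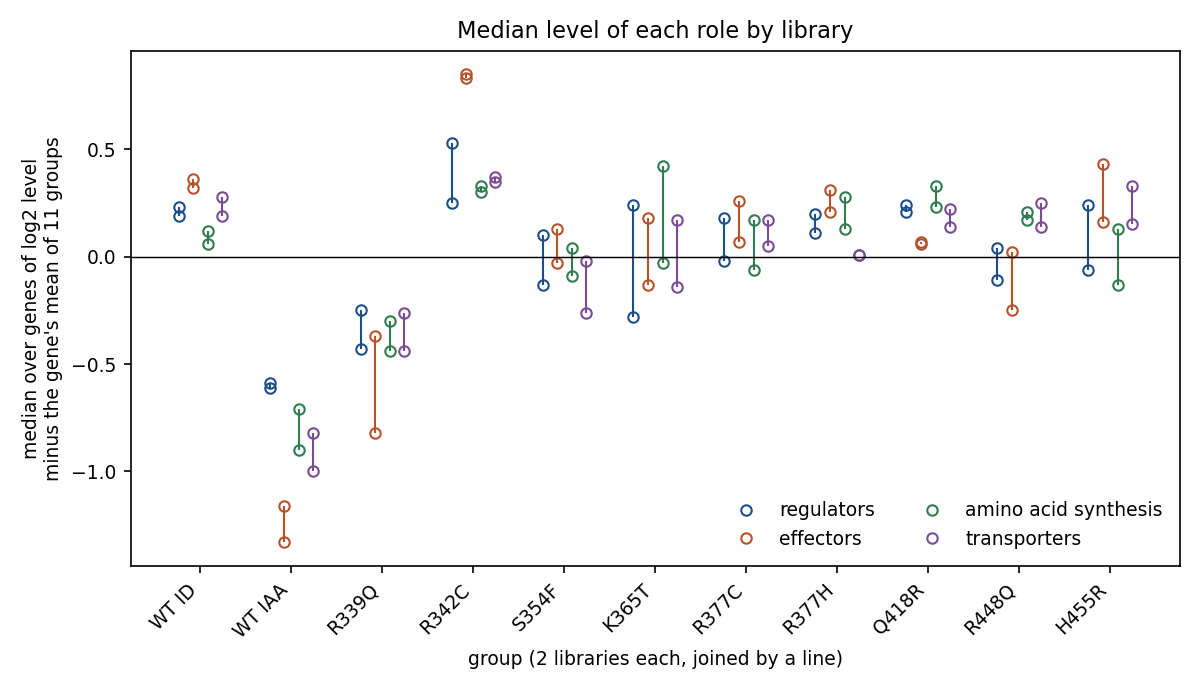
Median over the genes of a role of the log2 level minus the gene's mean of 11 groups, for the 2 libraries of each group (circles joined by a line). By the mean of the 2 libraries, WT IAA is lowest in every role, R339Q next, and R342C is highest for regulators, effectors, enzymes and transporters. Single libraries overlap: for enzymes K365T replicate 2 (0.42) is above both R342C libraries (0.30 and 0.33). For regulators K365T replicate 1 (-0.28) is below R339Q replicate 2 (-0.25).

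How far single members shared the common profile was described by the Pearson correlation of their 11 group means with the median profile, with no test, since the profile holds the members themselves and WT IAA weighs heavily. Trib3, Chac1 and Nupr1 were at 0.98, Aldh18a1 at 0.97 and Atf4 at 0.96. Without WT IAA these were 0.95, 0.94, 0.93, 0.90 and 0.90. Lowest were Xpot at 0.28, Sesn2 at 0.08 and Bcat1 at -0.30, so these listed genes did not follow the profile. Asns was at 0.85, with a range over group means that was small beside that of Chac1. Of 12364 genes outside the list with a mean of at least 50 normalized counts, 22 had a correlation over 0.9. The 8 highest were Ubap1l (0.972), Rhbdd1 (0.961), Nars (0.956), Yars (0.946), Arl14ep (0.944), G0s2 (0.941), Ifrd1 (0.935) and Cryzl1 (0.934). Ubap1l read 826 ± 78.6 normalized counts (SD, n = 2) in WT ID, 195 ± 1.21 in WT IAA, 359 ± 73.8 in R339Q and 1409 ± 61.5 in R342C.

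Other genes of the pathway were taken from 5 further lists. Cytosolic tRNA synthetases, which charge tRNA with amino acids, were lower in WT IAA for 13 of 20 and higher for 0, against 10.7% and 9.96% of all genes, with a median of -0.37; the largest decreases were Sars (-0.81 ± 0.13) and Cars (-0.78 ± 0.08). In R339Q 14 of 20 were lower than in WT ID, against 9.70% of all genes, among them Sars (-0.62 ± 0.13) and Nars (-0.55 ± 0.10), and in R342C 3 were lower, a share near the 13.3% of all genes. Between R339Q and R342C 12 were lower in R339Q and 1 higher, against 10.9% and 15.8% of all genes. The same shares of all genes apply to the lists that follow, and 11.8% of all genes were called higher in R339Q than in WT ID. Of 16 other stress targets 6 were lower and 1 higher in WT IAA, with Adm2, a secreted peptide, at -2.10 ± 0.28, Jdp2, a repressor of the ATF3 family, at -1.37 ± 0.15 and Sqstm1 at 0.28 ± 0.08. In R339Q 6 were lower and 0 higher, with Adm2 at -1.28 ± 0.28 and Jdp2 at -0.85 ± 0.15.

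Of 20 other amino acid and one-carbon genes 8 were lower in WT IAA, led by the mitochondrial enzyme Pck2 (-1.74 ± 0.15) and by Aldh1l2 (-1.72 ± 0.22), and 4 were higher, led by Slc43a1 (0.85 ± 0.14) and Glul, glutamine synthetase (0.37 ± 0.07). In R339Q 10 were lower, with Aldh1l2 at -1.13 ± 0.22 and Got2 at -1.04 ± 0.08, and 2 higher. Among 16 genes of the eIF2 kinases, eIF2 and eIF2B, 2 were higher in WT IAA (Impact, 0.65 ± 0.08, and Eif2ak3, which encodes PERK, 0.26 ± 0.07), a share near the 9.96% of all genes, and 4 lower, of which Eif2ak4, which encodes the amino acid sensor GCN2, had the largest decrease (-0.40 ± 0.08). In R339Q 1 was higher, Eif2ak2, which encodes PKR (1.09 ± 0.10), and 0 were lower. Eif2ak2 was also called higher than in WT ID in every other mutant except H455R, whereas in WT IAA it was called lower than in WT ID. Of 18 chaperones and related genes of the endoplasmic reticulum, targets of the unfolded protein response, 1 was lower in WT IAA, Herpud1 (-1.14 ± 0.16), and 0 were higher. Their median was 0.05 in WT IAA and 0.09 in R339Q, where 3 were higher and 1 lower, against 11.8% and 9.70% of all genes. In H455R 9 were higher and 0 lower than in WT ID, against 12.6% and 10.5% of all genes. S354F had 6 higher and 0 lower, against 5.49% and 4.31%, and Q418R 0 higher and 7 lower, against 11.2% and 13.8%.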

How the data were processed

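Total RNA libraries, stranded and depleted of ribosomal RNA per the labels' protocols, were deposited as normalized counts and as TPM. Trim Galore, STAR and DESeq2 and the mm10 build are named in the submitters' processing notes. Tool versions, gene annotation, read counter and strand option were not given in the sources used here. Normalized counts, as deposited, are a signal that behaves as whole reads scaled by a constant of each library, since 100% of values lay within 0.001 of a multiple of it. The authors' TPM are scaled by gene length. The 2 untreated libraries stand in tables scaled separately, so no test crosses those tables except edgeR on recovered reads.

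Log2(normalized count + 1) was fitted for genes averaging at least 10 normalized counts over 22 libraries, with limma 3.58.1 in R 4.3.3 (1 coefficient per group, eBayes with trend, residual degrees of freedom 11, prior 8.13). P-values, two-sided, were adjusted by Benjamini-Hochberg over 18713 genes within each of 23 comparisons, and an adjusted p under 0.05 was called. Standard errors follow log2 differences and standard deviations follow levels. Untreated cells were described by log2 ratios of mean TPM + 0.1 over genes averaging at least 10 normalized counts over all 24 libraries. Comparing them with WT IAA was added after the data were seen. Alternatives were quantile normalization, TPM, another pseudocount, no filter on low values, edgeR 4.0.16 and DESeq2 1.42.0 on recovered reads, the 2 groups alone, a replicate block, chromosome centring and leaving out each library. Tests were tried on simulated data.

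The members, lists and rules were chosen with earlier results of these data known. Values in every treated library are given for Atf4, Ddit3, Trib3, Chac1, Asns, Psat1, Slc7a11, Slc7a3 and members called at 2-fold or more in at least 3 comparisons with WT ID (Fgf21 and Slc7a11). For each mutant the 3 largest called changes in each direction were named, with at most 2 genes a direction from each further list. The 8 genes nearest to the median profile were chosen among those with a mean of at least 50. Other named values were chosen after they were seen. Of 164 listed genes 164 were matched.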

Additional observations from a re-analysis of the deposited data

Results flagged for a closer look

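For 4 pairs of mutant lines the difference itself was tested with limma over all genes, and members of the list differed in each pair. R339Q and R342C differed in 28 members, R448Q and H455R in 13, S354F and K365T in 9 and R377C and R377H, 2 substitutions of the same residue, in 3 (Cth, Pycr1 and Slc7a3). Each mutant is 1 line, so the substitution and the line cannot be told apart. Genes of chromosome 11, which holds Pycr1, had a median shift of 0.54 from WT ID in R377H, and Pycr1 was at 0.08 between R377C and R377H after centring by chromosome. Ddit3 read 201 and 626 normalized counts in the replicates of K365T, and leaving out 1 library gave 5 to 13 members between S354F and K365T.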

How the results depend on the processing

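With 2 libraries a group, small counts of called members moved with the processing. Results not named here stayed within 1.5 times their count, and of the recomputed values of single called genes 4678 kept direction and call, 423 lost the call and 8 changed sign. In R342C against WT ID the count of 4 became 10 under quantile normalization, 2 with no filter on low values (39578 genes adjusted together) and 7 with the 2 groups alone. S354F against WT ID gave 1 by TPM, 1 with no filter and 11 with the 2 groups alone, R377H 2 with no filter and 12 with the 2 groups alone, and R448Q 11 with no filter and 11 with chromosome centring. With the 2 groups alone R377C gave 3, Q418R 13, H455R 10, R339Q against WT IAA 26, R377C against R377H 6 and S354F against K365T 4; the last gave 5 with no filter. Between WT UN and WT IAA the count of 5 became 3 with TPM + 1 and 8 when centred. Leaving out each library in turn gave 1 to 3 members in R342C, 0 to 5 in S354F, 5 to 17 in K365T, 2 to 3 in R377H, 3 to 5 in Q418R, 8 to 12 in R448Q and 2 to 5 in H455R against WT ID, 5 to 12 in R339Q against WT IAA, 1 to 2 between R377C and R377H and 5 to 13 between S354F and K365T. The sign turned under chromosome centring for Pycr1 in R377H (-0.11) and in R377C against R377H (0.08), Bcat1 in Q418R against WT ID (0.06) and WT IAA (0.11), Eif4ebp1 in R448Q (-0.01), Gpt2 in H455R (-0.11) and Cth in R448Q against WT IAA (-0.13), and under TPM for Xpot in R448Q against WT IAA (0.00). Apart from what these settings change, the cause was not tested.

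Replicate numbers did not pair the samples: over 55 pairs of groups the correlation of same-numbered deviations ranged from -0.248 to 0.382 (median 0.023), and 10 were over 0.1. With the replicate block the count of called members was 29 in WT IAA and 21 in R339Q against WT ID and 28 between R339Q and R342C, and all 24 tested counts stayed within 1.5 times. Fgf21 and Slc7a11 had the fewest reads, and differences of these genes are limited by depth.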
